A study of Mus musculus with 2 samples.

Results

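The cells described here are osteocytes of the mouse femur, picked from droplet single-cell RNA sequencing by their counts of *Dmp1*, *Mepe* and *Phex*. A barcode was a member when it held 200 or more detected genes and at least 2 unique molecular identifiers (UMIs, counted mRNA molecules) in each of at least 2 of these 3 genes. *Bglap* had to be under 0.5% and *Col2a1* under 1% of its UMIs, and the haemoglobin genes *Hba-a1*, *Hba-a2*, *Hbb-bs* and *Hbb-bt* together under 10%. The rule found 94 members among 8553 barcodes with 200 or more genes, of 10638 barcodes in all. Both groups were male C57BL/6J mice aged 7 weeks, 1 left untreated and 1 given 3 injections of calcitriol, the active form of vitamin D, at 2.5 μg/kg, with femurs taken 24 h after the last injection. The femurs of 6 mice per group were pooled into 1 library, so no difference between the groups has a replicate check and no p-value is given. The bone ends were cut off, the marrow was flushed out, cells were freed with collagenase and EGTA, and CD45-positive blood cells were depleted on beads, so that only cells released by these steps could be seen.

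Osteocytes are osteoblasts that have been buried in the matrix they made and that stay connected through dendrites. They are the main source of the hormone FGF23, which lowers blood phosphate by acting on the kidney, and of sclerostin, the product of *Sost*, which restrains bone formation by blocking Wnt signals. *Dmp1* and *Mepe* encode acidic matrix phosphoproteins of the SIBLING family, and *Phex* encodes a membrane endopeptidase; loss of *Dmp1* or *Phex* raises FGF23. Calcitriol binds the vitamin D receptor VDR and is known to raise FGF23 production in bone, which in turn lowers calcitriol. *Spp1* (osteopontin) and *Ibsp* (bone sialoprotein) are the other SIBLING genes expressed in bone, and *Spp1* is a textbook VDR target.

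In the GENCODE annotation of GRCm38, *Dmp1* (chr5:104202613-104214102), *Ibsp* (chr5:104299171-104311469), *Mepe* (chr5:104325329-104338611) and *Spp1* (chr5:104435118-104441050) lie in a row on the plus strand of chromosome 5. *Fgf23* lies at chr6:127072902-127081408 on the plus strand, *Sost* at chr11:101962458-101967015 and *Phex* at chrX:157162075-157415312, both on the minus strand. The 250 bases before the RefSeq start of the genes the results turn on are shown, since transcription of these osteocyte genes begins near their ends. They are sequences of GRCm38.p6, read 5′ to 3′ along the gene. The RefSeq start equals the GENCODE start for *Fgf23*, *Mepe* and *Sost*. It lies 7 bases upstream of it in *Spp1*, 4 bases downstream in *Dmp1* and 26 bases downstream in *Phex*, so the last bases of the *Dmp1* and *Phex* windows are inside the GENCODE gene. Their positions are chr6:127072652-127072901 for *Fgf23*, chr5:104434861-104435110 for *Spp1*, chr5:104202367-104202616 for *Dmp1*, chr5:104325079-104325328 for *Mepe*, chrX:157415287-157415536 for *Phex* and chr11:101967016-101967265 for *Sost*. Capitals mark the letters TTTAAA, a variant of the TATA box.
Fgf23: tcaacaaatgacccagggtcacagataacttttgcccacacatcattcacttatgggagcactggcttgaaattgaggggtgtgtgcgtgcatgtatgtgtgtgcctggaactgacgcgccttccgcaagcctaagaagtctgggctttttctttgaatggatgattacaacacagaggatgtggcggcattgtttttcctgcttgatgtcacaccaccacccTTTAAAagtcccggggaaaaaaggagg
Spp1: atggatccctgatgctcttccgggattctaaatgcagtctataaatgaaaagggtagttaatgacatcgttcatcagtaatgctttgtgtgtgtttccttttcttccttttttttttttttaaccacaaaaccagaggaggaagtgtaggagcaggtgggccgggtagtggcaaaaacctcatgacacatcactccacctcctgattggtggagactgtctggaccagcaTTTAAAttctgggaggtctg
Dmp1: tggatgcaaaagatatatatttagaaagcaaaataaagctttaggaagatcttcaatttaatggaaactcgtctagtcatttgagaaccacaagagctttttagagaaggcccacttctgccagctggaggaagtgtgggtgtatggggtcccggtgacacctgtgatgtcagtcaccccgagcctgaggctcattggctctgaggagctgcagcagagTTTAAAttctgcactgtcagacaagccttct
Mepe: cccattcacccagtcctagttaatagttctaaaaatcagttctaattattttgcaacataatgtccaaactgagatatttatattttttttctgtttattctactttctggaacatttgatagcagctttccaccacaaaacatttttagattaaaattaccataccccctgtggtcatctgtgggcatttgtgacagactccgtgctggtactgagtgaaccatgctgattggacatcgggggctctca
Phex: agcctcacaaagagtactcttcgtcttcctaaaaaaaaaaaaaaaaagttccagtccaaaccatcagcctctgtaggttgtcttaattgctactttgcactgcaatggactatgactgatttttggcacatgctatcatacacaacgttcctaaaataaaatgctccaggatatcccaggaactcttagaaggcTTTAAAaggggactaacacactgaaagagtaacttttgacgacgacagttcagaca
Sost: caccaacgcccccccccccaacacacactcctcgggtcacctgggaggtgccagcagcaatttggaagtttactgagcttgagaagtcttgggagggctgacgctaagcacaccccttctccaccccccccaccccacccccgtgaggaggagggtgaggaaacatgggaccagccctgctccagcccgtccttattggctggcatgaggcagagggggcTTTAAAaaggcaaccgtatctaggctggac
TTTAAA occurred in 5 of the 6 windows, and it was not in the *Mepe* window. Its first base lay 27 bases before the RefSeq start in *Fgf23*, 20 in *Spp1*, 31 in *Dmp1*, 30 in *Sost* and 56 in *Phex*. Counted from the GENCODE start, it lay 27 bases before it in *Fgf23*, *Spp1* and *Dmp1* and 30 in *Sost* and *Phex*. Its place between 45 and 15 bases before the RefSeq start was noticed after the sequences had been read, so the shares that follow are a description. Of all 32851 RefSeq promoters, 1.85% had TTTAAA there, and 12.1% had it anywhere in the 250 bases before the start. The letters are their own reverse complement, so both strands were covered by 1 search. In that place it was found in 1.47% of the 2593 genes with a promoter that were compared between the groups, in 5 of the 105 called higher with calcitriol and in 1 of the 67 called lower. The hexamer bound by nuclear receptors such as VDR, AGGTCA on either strand, was in none of the 6 promoters and in 14.0% of all, and the variant AGTTCA was in 1 of the 6 and in 11.8% of all. ACCACA, the core of RUNX2 sites, was in 3 of the 6 and in 14.0% of all on either strand. These letters do not overlap TTTAAA in the printed windows, and a match or its absence in so short a window says nothing about binding.

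The untreated library held 23 members and the calcitriol library 71. They were 0.496% of 4633 and 1.81% of 3920 barcodes with 200 or more genes. Since barcodes rich in haemoglobin were far more frequent in the untreated library (2394, against 462), the shares were also taken among barcodes with haemoglobin under 10%, where they were 1.03% (exact Clopper-Pearson 95% interval 0.652% to 1.54%) and 2.05% (1.61% to 2.58%). The intervals cover counting error only, and how many osteocytes each digestion released was not tested. Members held 265374 UMIs in the untreated library, of 70266983, and 1159938 in the calcitriol library, of 60392557. The median member had 9535 UMIs and 2528 genes without calcitriol and 11338 UMIs and 2574 genes with it, and the mitochondrial share was 2.66% and 2.07%. Levels are given in CPM, a gene's UMIs divided by those of all genes over the members of a library and scaled to 1000000. With these sums, 3 UMIs correspond to 11.3 CPM in untreated and 2.59 CPM in calcitriol members, which is the level under which a gene without UMIs may still lie. The libraries shared 8 barcode sequences, none of which was a member in both.

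All 3 marker genes reached 2 UMIs in 6 of 23 untreated and 34 of 71 calcitriol members, and *Dmp1* with *Phex* alone in 12 and 24. The second marker stood at exactly 2 UMIs in 4 and 10 members, just inside the rule. The members nearest to the *Bglap* limit had 0.445% and 0.451%, and the nearest barcodes outside it 1.01% and 0.603%. For *Col2a1* these values were 0.850% and 0.905% inside and 1.14% and 1.10% outside. The *Bglap* limit alone kept out 11 and 8 barcodes and the *Col2a1* limit alone 4 and 3.

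The label was checked against markers that the rule did not use. *Sost* had a UMI in 8 of 23 (34.8%, 16.4% to 57.3%) and 30 of 71 members (42.3%, 30.6% to 54.6%), against 0 of 307 and 1 of 385 barcodes with 2 or more endothelial markers, whose median UMI counts were 8178 and 10112. It stood at 328 CPM in untreated and 294 CPM in calcitriol members and at 0.275 and 0.483 CPM in all other barcodes. Other osteocyte genes outside the rule were mixed. *Irx5* had a UMI in 73.9% and 83.1% of members, against 4.56% and 10.4% of the endothelial barcodes. *Pdpn* had 26.1% and 38.0%, against 16.3% and 20.0%. *Gja1* had 91.3% and 67.6%, against 68.1% and 73.0%, and *Capg* 43.5% and 74.6%, against 54.1% and 56.4%. Markers of neutrophils were at 0 in every member, and those of macrophages, Schwann cells, endothelium and cycling cells had a median of 0% of a cell's UMIs in both libraries. Fibroblast markers, led by *Dcn*, had medians of 0.0210% and 0.0356% and exceeded 1% in 0 and 3 members, and tendon markers had medians of 0% and exceeded 1% in 0 and 1. Cartilage genes were more frequent. The list of 16 chondrocyte markers made up more than 1% of the UMIs in 5 of 23 and 19 of 71 members, up to 5.50% and 7.80%, with medians of 0.253% and 0.195%. Its most abundant gene was *Prg4*, at 1677 and 2296 CPM, and *Sox9*, the transcription factor that defines the cartilage lineage, had a UMI in 13 and 48 members. *Col10a1* and *Ihh*, genes of hypertrophic cartilage, had UMIs in 5 and 38 and in 6 and 17 members, and 95.9% of the untreated *Col10a1* UMIs came from 1 cell. The osteoblast list, led by *Col1a1*, had medians of 1.82% and 0.834% and exceeded 1% in 16 of 23 and 33 of 71 members, up to 20.6% and 10.9%. The osteocyte list, which holds the 3 marker genes of the rule, exceeded 1% in 10 and 38 members. Thus the rule gathered cells with osteocyte markers, of which some had cartilage markers above 1% and more of them had osteoblast markers above 1%.

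In single members, *Dmp1* took a median of 0.432% of the UMIs without calcitriol (lowest 0.0266%, highest 2.27%) and 0.567% with it (0% to 3.29%). *Mepe* had a UMI in 12 of 23 and 48 of 71 members and *Phex* in 20 and 62. Across cells, the shares of *Dmp1* and *Phex* went together with a Spearman rho of 0.47 in 23 untreated and 0.56 in 71 calcitriol members, and those of *Dmp1* and *Mepe* with 0.37 and 0.41. These values describe cells that were chosen on the same genes. In the untreated library the share of *Dmp1* also went with depth, at a rho of -0.64 against UMIs per cell, which was -0.12 in the calcitriol library.

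The first comparison asked how the transcriptome of the osteocytes differed after calcitriol. *Spp1* was the most abundant transcript of the calcitriol members. It made up 12.6% of their UMIs, against 3.21% in the untreated members. *Fgf23* had no UMI in 23 untreated members and 467 UMIs in 8 of 71 calcitriol members. *Ank*, which exports the mineralization inhibitor pyrophosphate, was higher by 2.16 on the log2 scale, and the collagen gene *Col1a1* was lower by 1.02. *Sost* and *Phex* had ratios of -0.16 and 0.25. Genes were compared when they had 50 or more UMIs over all members and were detected in at least 10% of the members from either library. A gene was called when it differed at least 2-fold both in the pooled CPM and in the mean of the cells' own CPM. Of 3244 genes compared, 135 were called higher with calcitriol (4.16%) and 97 lower (2.99%). The median log2 ratio of all genes was -0.02, and the middle 50% lay between -0.36 and 0.33. The 95% counting interval of the ratio excluded 0 for 112 of the 135 and for all 97. In 10 of the higher and 16 of the lower genes, at least 50% of the UMIs of the higher library came from 1 cell. When the cell with the most UMIs of a gene was left out of the higher library, 37 of the 135 and 58 of the 97 were under 2-fold in the pooled CPM, and 2 and 6 changed sign. Without the 5 and 19 members above 1% cartilage markers, 121 genes were higher and 96 lower, and these included 72 of the 135 and 54 of the 97.

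**Figure D1:**
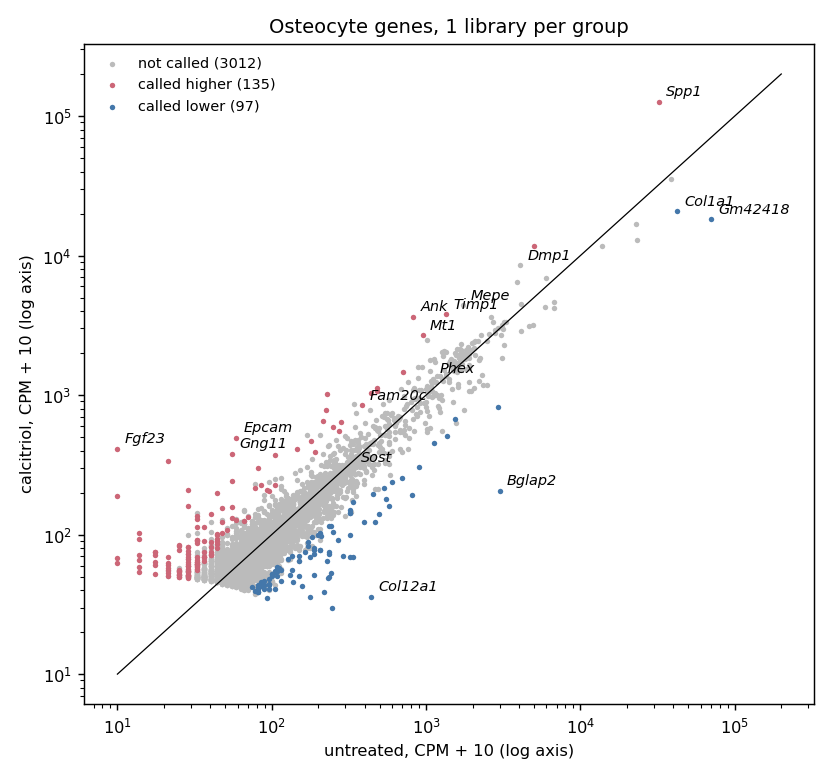
Level of each compared gene in the untreated members (horizontal axis) and in the calcitriol members (vertical axis), both as CPM with 10 added on log axes, with called genes in colour and the line marking equal levels. The 135 genes called higher lie above the line, led in level by *Spp1* at 32068 and 126392 CPM, and the 97 called lower lie under it, among them *Col1a1*.

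*Spp1* stood at 32068 CPM in untreated and 126392 CPM in calcitriol members, a log2 ratio of 1.98 (95% counting interval 1.95 to 2.01). Every untreated member and 70 of 71 calcitriol members had it. Its share of a cell's UMIs had a median of 1.78% without calcitriol (lowest 0.0651%, highest 21.0%) and of 10.6% with it (0% to 34.8%). The ranges of the cells overlapped, and 2 of 23 and 37 of 71 members were above 10%. *Spp1* was also higher with calcitriol in barcodes that should not express it much. It was at 563 and 5440 CPM in barcodes with 2 or more endothelial markers, with a UMI in 21.2% and 52.2% of them, and at 630 and 1627 CPM in barcodes with haemoglobin of 10% or more. The level of the members lay far above that of these barcodes in both libraries, and the part of free RNA in the difference was not tested. Without the 5 and 19 members in which cartilage markers exceeded 1%, the log2 ratio of *Spp1* was 2.42.

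**Figure D2:**
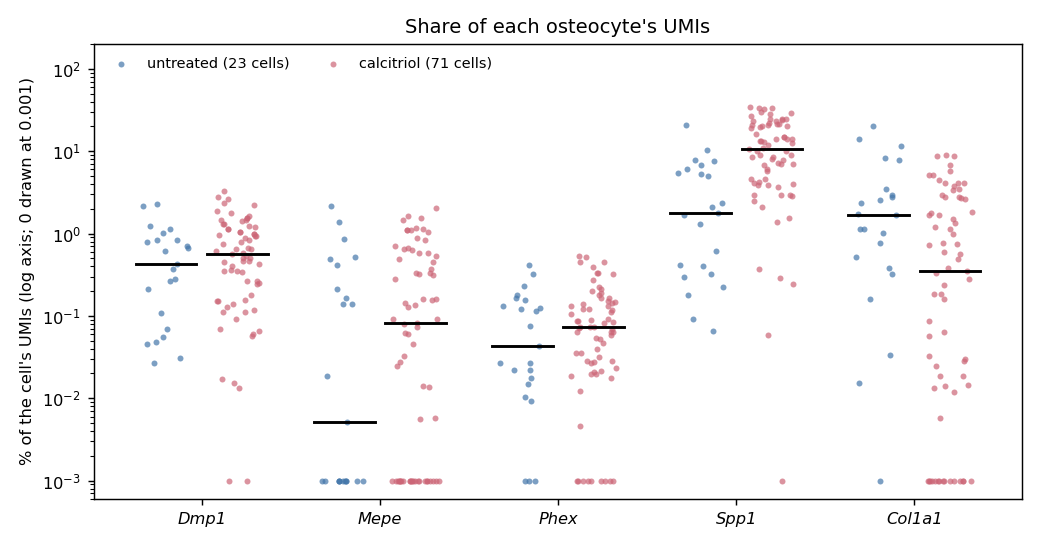
Share of each member's UMIs (vertical axis, percent, log scale, 0 drawn at the bottom) taken by *Dmp1*, *Mepe*, *Phex*, *Spp1* and *Col1a1*, 1 point per cell, untreated (23 cells) beside calcitriol (71 cells), with the median as a line. The median of *Spp1* is 1.78% and 10.6%, that of *Col1a1* is 1.67% and 0.353%, and the cells of the libraries overlap for every gene.

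Of the 15 SIBLING and mineralization genes, 13 were compared, 4 were called higher and none lower, beside 4.16% and 2.99% of all genes, with a median log2 ratio of 0.88 beside -0.02 for all genes. That median includes *Dmp1* and *Mepe*, whose counts chose the members, and no median without them was taken. *Ank* was at 814 and 3639 CPM, with a UMI in 21 of 23 and 70 of 71 members. Its interval was 1.96 to 2.36, and it stood at 72.1 and 115 CPM in the endothelial barcodes. *Fam20c*, the kinase that phosphorylates SIBLING proteins and FGF23, was at 377 and 837 CPM (log2 ratio 1.15, 0.85 to 1.46), in 19 and 65 members. *Mgp*, an inhibitor of calcification made by cartilage, was at 5004 and 11766 CPM (1.23), and at 1339 and 3217 CPM (1.26) without the members above 1% cartilage markers. Its ratio was -1.22 when only members with *Col2a1* under 0.1% were kept and 0.39 without the 1 calcitriol cell that held 45.7% of the UMIs, and in the endothelial barcodes it stood at 2516 and 7022 CPM. The remaining genes of the list missed the call. *Dmp1* was at 4077 and 8502 CPM, a log2 ratio of 1.06 in the pooled sums and 0.32 in the mean of the cells. *Mepe* was at 1730 and 4392 CPM, with 1.34 and 0.25. Neither was called, and both genes chose the members. *Ibsp* had 0.74, *Enpp1*, which makes pyrophosphate, 0.69, the phosphate transporter *Slc20a1* 0.88 and *Sparc* -0.44.

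Of the genes that make or limit FGF23, 10 of 12 were compared. *Fgf23* and *Fam20c* were called higher and none lower, beside 4.16% and 2.99% of all genes. *Fgf23* stood at 0 CPM in untreated and 403 CPM in calcitriol members. Against the level that 3 UMIs would have in the untreated members this was at least 35.6-fold higher. With 23 untreated members, 3 cells would be 13.04%, and the upper Clopper-Pearson 95% limit of 0 in 23 was 14.8%. The share in the calcitriol library was 11.3% (4.99% to 21.0%), so a difference in the share of positive cells was not detectable at this number of cells. *Galnt3*, whose product protects FGF23 from cleavage, had a log2 ratio of 0.03 (-0.69 to 0.80), the protease gene *Furin* -0.43 (-1.05 to 0.24), the receptor *Fgfr1* 0.17 (-0.10 to 0.44) and *Phex* 0.25 (0.07 to 0.44).

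*Vdr* itself was at 98.0 and 131 CPM, with a UMI in 9 of 23 and 38 of 71 members, and its log2 ratio of 0.42 had an interval from -0.19 to 1.08. Of 15 textbook genes of the vitamin D system 5 had enough UMIs, and *Spp1* was the 1 called. Of all genes compared, 4.16% were called higher and 2.99% lower. *Cyp24a1*, the enzyme that inactivates calcitriol, had 0 UMIs in the untreated and 12 in 5 of the calcitriol members. *Tnfsf11*, which encodes RANKL, was at 121 and 106 CPM (-0.19, -0.76 to 0.42), and *Tnfrsf11b*, its decoy receptor, at 1085 and 964 CPM (-0.17). *Trpv6*, *S100g* and *Gc* were at 0 in all members. A further list holds the vitamin D genes that the study named from these same samples, so its direction is no independent evidence. There, 12 of 15 genes were compared. Of these, 4 were called higher (*Ccnd2*, *Il12a*, *Il4i1* and *Timp1*) and none lower, beside 4.16% and 2.99% of all genes. *Timp1*, an inhibitor of matrix proteases, was at 1342 and 3796 CPM (1.5, 1.34 to 1.66) in 16 and 58 members, with a ratio of 2.75 without the members above 1% cartilage markers, and in the endothelial barcodes at 433 and 469 CPM. *Il4i1*, an amino acid oxidase gene, was at 18.8 and 198 CPM in 1 and 20 members, and *Ccnd2*, encoding a cyclin, at 75.4 and 218 CPM. *Serinc2* had 0 and 46 UMIs, under the limit of 50.

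Of 18 genes for matrix and transcription factors of the osteoblast lineage, 15 were compared, none was called higher and 5 were called lower, beside 4.16% and 2.99% of all genes, with a median log2 ratio of -0.83. That median includes *Bglap*, which the rule limits, and no median without it was taken. *Col1a1*, the main chain of bone collagen, was at 42092 and 20802 CPM (-1.02, -1.05 to -0.98), and its median share of a cell's UMIs was 1.67% and 0.353%. *Col5a2* was at 690 and 244 CPM and *Col11a2* at 520 and 206 CPM. *Col12a1*, a collagen of dense fibrous tissue, had UMIs in 7 of 23 and 4 of 71 members, and 63.2% of the untreated UMIs came from 1 cell, without which its log2 ratio was -2.78 instead of -4.05. *Bglap2*, an osteocalcin gene that is nearly identical to *Bglap* and can share reads with it, was at 2996 and 197 CPM (-3.93) in 10 and 16 members. In *Bglap2* 488 of 795 untreated UMIs came from 1 cell, without which the untreated level was 1253 CPM and the log2 ratio -2.67. *Bglap* itself, which the rule limits, had -0.86 and was not called. *Runx2* and *Sp7*, transcription factor genes of the lineage, were not called either, at -0.57 and 0.54 (-0.35 to 1.55).

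**Figure D3:**
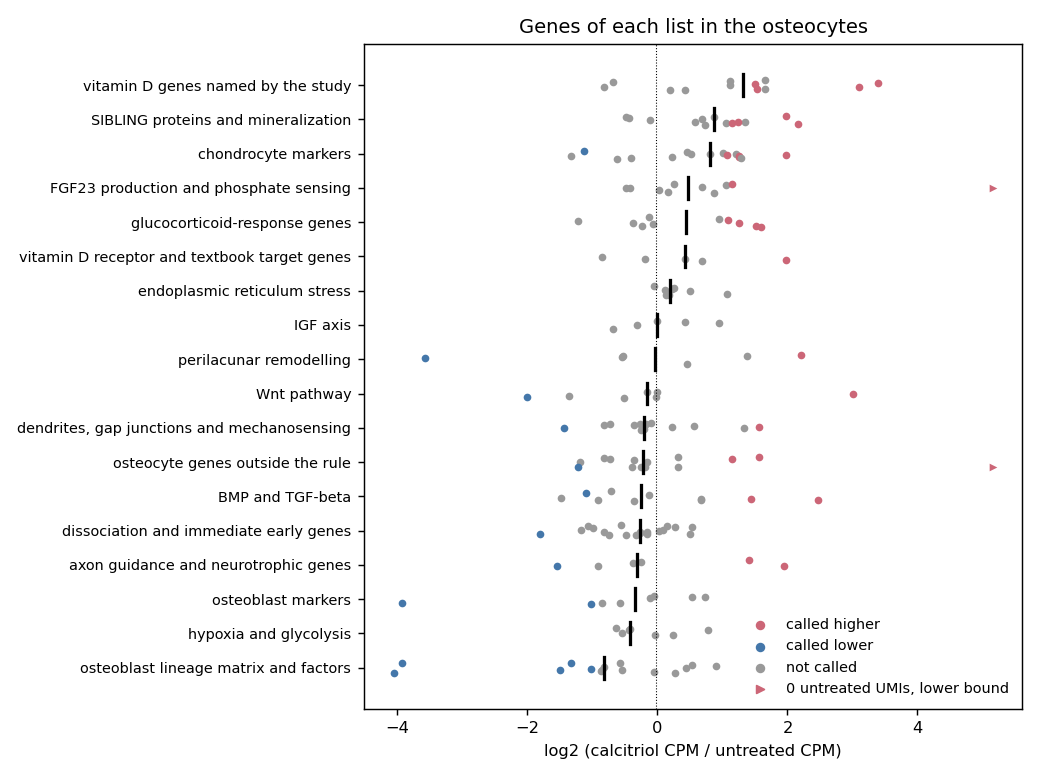
Log2 ratio of calcitriol over untreated CPM in the members (horizontal axis) for each compared gene of each list (rows), with the list's median as a bar, called genes in colour, the median of all genes as a dotted line and a triangle for *Fgf23*, whose ratio is a lower bound. SIBLING and mineralization genes have their median at 0.88 and osteoblast matrix genes at -0.83, while the median of all genes is -0.02. The first list includes *Dmp1* and *Mepe* and the second *Bglap*, which the rule used to choose the members.

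Among 14 compared osteocyte genes that the rule did not use, 3 were called higher and 1 lower, beside 4.16% and 2.99% of all genes. *Capg*, an actin-capping gene, was at 136 and 403 CPM (1.57, 1.08 to 2.10) in 10 and 53 members. It was also in 54.1% and 56.4% of the endothelial barcodes. *Omd*, a small proteoglycan, was at 313 and 134 CPM (-1.23), or at -0.55 without 1 untreated cell with 42.2% of the UMIs and at -5.23, with 42 and 5 UMIs left, without the members above 1% cartilage markers. *Sost* was at -0.16 (-0.50 to 0.20). Its share of positive cells was 34.8% and 42.3% as counted but 27.3% and 21.7% after each cell had been thinned to 2000 UMIs, so no order is read from it. The dendrite genes *Pdpn* and *Cd44* had -0.73 and -0.25 and the gap junction gene *Gja1* -0.36. Of 13 genes for dendrites and mechanosensing 1 was higher (*Capg*) and 1 lower (*Ezr*), beside 4.16% and 2.99% of all genes. Of 6 genes for the remodelling of the matrix around osteocytes 1 was higher and 1 lower, beside 4.16% and 2.99% of all genes. The collagenase gene *Mmp13* was higher, at 219 and 1005 CPM in 3 and 17 members, or 596 CPM with calcitriol without 1 cell. The carbonic anhydrase gene *Car3* was lower, at 237 and 19.8 CPM. Its untreated UMIs came from 3 members, 53 of 63 from 1 cell, and without that cell the untreated level was 40.8 CPM and the log2 ratio -1.04 instead of -3.58.

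Of 7 compared Wnt genes 1 was called higher and 1 lower, and of 10 BMP and TGF-beta genes 2 and 1, beside 4.16% and 2.99% of all genes. Among the Wnt genes, the secreted antagonist *Frzb* was higher, at 18.8 and 151 CPM, and *Sfrp4*, another secreted antagonist, lower, at 219 and 54.3 CPM. *Frzb* came from 2 and 9 members, with a log2 ratio of 3.0. Without the members above 1% cartilage markers it had 0 untreated and 17 calcitriol UMIs (21.2 CPM), and the log2 ratio was at least 0.34 against 3 untreated UMIs. The antagonist *Wif1* was at 626 and 622 CPM (-0.01, -0.25 to 0.25). Among the BMP and TGF-beta genes, *Bambi*, a pseudoreceptor that dampens this pathway, was higher at 170 and 460 CPM in 12 and 56 members, *Inhba*, an activin subunit, was higher at 33.9 and 189 CPM, and *Bmp3* was lower at 226 and 105 CPM (-1.10), or at -0.84 without 1 untreated cell and -0.93 without the members above 1% cartilage markers. *Bmp2* was at 682 and 1091 CPM without a call. None of 5 IGF genes, 7 hypoxia and glycolysis genes, 8 genes of endoplasmic reticulum stress or 2 osteoclast regulators was called.

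Of 10 glucocorticoid-response genes 4 were called higher (*Fkbp5*, *Dusp1*, *Mt1* and *Mt2*) and none lower, beside 4.16% and 2.99% of all genes, with a median log2 ratio of 0.44. The metallothionein gene *Mt1* was at 938 and 2680 CPM (1.51, 1.33 to 1.71), and in the endothelial barcodes it stood at 1483 and 4212 CPM. *Fkbp5*, a cochaperone of steroid receptors, had a UMI in 3 of 23 and 32 of 71 members. *Tsc22d3*, another gene of this list, had -0.06. Of 19 immediate early and dissociation genes none was higher, and only the chaperone gene *Dnajb1* was lower, at 309 and 88.8 CPM (-1.80), or at -0.79 without the members above 1% cartilage markers. *Fos* was at 3086 and 1843 CPM and *Egr1* at 2476 and 1177 CPM, and neither was called. The 4 haemoglobin genes were lower with calcitriol, *Hbb-bs* at 803 and 182 CPM, beside the fewer haemoglobin-rich barcodes of that library. Among 15 chondrocyte markers *Acan*, *Col9a1*, *Snorc* and *Cytl1* were called higher and *Ihh* lower, beside 4.16% and 2.99% of all genes. Between 41.0% and 77.5% of the calcitriol UMIs of the 4 higher genes came from 1 cell each. The part of these cartilage transcripts in the other differences was not tested beyond leaving the cells out.

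The genes with the largest ratios, ranked with 10 CPM added to each level, were mostly detected in a minority of members. Those called higher began with *Fgf23*, *Chil1*, *Fabp4* and *Epcam*. *Epcam*, encoding an adhesion molecule known from epithelia, was at 49.0 and 486 CPM (3.31, 2.53 to 4.23), in 6 of 23 and 31 of 71 members, against 1.30% and 3.90% of the endothelial barcodes. *Gng11*, a G protein subunit gene, was at 45.2 and 370 CPM (3.03), in 8 and 45 members, and *Stard8* had 1 UMI in the untreated members and 71 UMIs in 30 calcitriol members (4.02, 1.5 to 9.35). *Pacsin1*, for a protein of membrane trafficking, was in 1 and 24 members (4.46, 1.94 to 9.78) and in at most 0.326% of the endothelial barcodes. *Gng11*, *Stard8*, *Ace* and *Fabp4* are also endothelial transcripts, with a UMI in 75.3%, 22.3%, 41.0% and 66.5% of the endothelial barcodes of the calcitriol library. The 7 endothelial markers themselves summed to 26.4 CPM in untreated and 170 CPM in calcitriol members, led by *Cdh5*, and their part in these differences was not tested. *Fabp4* rested on 1 cell with 335 of 380 UMIs, and its log2 ratio was 1.82 without that cell instead of 4.86. *Chil1* and *Tfpi2* had no UMI in the untreated members. Set against 3 UMIs there, *Chil1* was at least 15.9-fold higher, but 155 of its 208 UMIs came from 1 cell with 4.30% cartilage markers. Without that cell the bound was 4.34-fold, and without all members above 1% cartilage markers 3 UMIs were left in the calcitriol library and no fold can be given. *Tfpi2* was at least 4.65-fold higher, or 2.60-fold without 1 cell with 29 of 61 UMIs. *Il4i1*, *Gm17322* and *Frzb* complete the set.

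The lower end held *Bglap2*, *Col12a1*, *Car3*, *Col13a1*, *Apoe*, *Fmod*, *Itm2a*, *Adamts5*, *Gm42418*, *Cryab*, *Thbs2* and *Crispld1*. *Col13a1*, a membrane collagen, was at 166 and 25.9 CPM (-2.68, -3.40 to -1.98), in 9 and 16 members. *Fmod*, a proteoglycan of collagen fibrils, was at 222 and 38.8 CPM, or 130 CPM in the untreated members without 1 cell and 38.9 and 1.24 CPM without the members above 1% cartilage markers, *Adamts5*, a protease of proteoglycans, at 279 and 60.3 CPM, and *Thbs2*, a matricellular protein gene, at 147 and 32.8 CPM. *Cryab*, a small heat shock protein gene, was at 456 and 112 CPM in 12 and 21 members. *Gm42418*, an annotated long non-coding RNA, was at 70478 and 18237 CPM. In 1 untreated cell it made up 67.3% of the UMIs, and without that cell the log2 ratio was -0.50 instead of -1.95. *Itm2a* was at -2.38, but 58 of its 82 untreated UMIs came from 1 cell with 5.50% cartilage markers, and the ratio was -0.71 without that cell and -0.70 without all members above 1%. *Apoe* was at -2.47, with 64 of 86 untreated UMIs in the same cell and UMIs in 3 untreated members, at -0.61 without it, and at -2.30 (-3.25 to -1.35) without all members above 1%, of either library. The ratio of *Crispld1* was -2.10, but it was 0.54 (-1.60 to 3.73) without the members above 1% cartilage markers and 0.72 with 3 marker UMIs required, and 40 of its 47 untreated UMIs came from 1 cell. Among genes seen in most untreated members, *Tpm1* (-1.92, or -1.23 without 1 cell), the collagen chaperone gene *Serpinh1* (-1.45), *Vim* (-1.19) and *Pth1r*, the receptor of parathyroid hormone (-1.17), were lower as well.

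The next comparison, within the calcitriol library, described the 8 members with *Fgf23* beside the 63 without. They are cells of 1 library, so the values are a description. The 8 cells held 158, 107, 96, 44, 30, 12, 12 and 8 UMIs of *Fgf23*, which ranged from 868 to 7020 CPM within a cell. They held 86.3% of the 541 *Fgf23* UMIs of the library. Their median depth was 15559 UMIs, against 10640 in the others, and all 8 remained positive after thinning to 2000 UMIs. *Dmp1* was at 19587 CPM in the positive and 6126 CPM in the negative members, *Mepe* at 9750 and 3243 CPM and *Phex* at 3468 and 835 CPM. These 3 genes chose the members, so their values are given without a call. *Ank* (6946 and 2930 CPM), *Timp1* (8636 and 2759 CPM), *Pdgfa* (1597 and 554 CPM) and *Vdr* (244 and 107 CPM) were at least 2-fold higher in the positive members, also when the positive cell with the most UMIs of the gene was left out (log2 ratios of 1.23, 1.08, 1.03 and 1.38). *Sost* was at 259 and 302 CPM, and 4 of the 8 had a *Sost* UMI. Of their 53 *Sost* UMIs 45 came from 1 cell, without which the positive members were at 42.7 CPM. *Galnt3* was at 58.6 and 80.6 CPM and *Furin* at 107 and 72.2 CPM, neither called. In 1 cell lay 14 of the 22 *Furin* UMIs of the positive members, and without it the log2 ratio was -0.27 instead of 0.57.

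By size among genes present in at least 50% of the cells of the higher class, the positive members were led after *Fgf23* by *Unc119*, *Ccnd2*, *Fam20a*, *Il4i1*, *Il12a*, *Mxd1*, *Mmp14* and *Lsp1*. *Ccnd2* was at 777 and 98.4 CPM (2.98, 2.60 to 3.36), in 7 of 8 and 28 of 63 cells. *Fam20a*, which encodes a pseudokinase that activates FAM20C, was at 332 and 40.8 CPM in 6 and 13 cells, and *Mmp14*, a membrane collagenase gene, at 1504 and 293 CPM. In *Unc119*, *Mxd1* and *Lsp1* most of the positive UMIs came from 1 cell (79.6%, 78.9% and 61.8%), without which their log2 ratios were 1.91, 0.91 and 1.32 instead of 3.84, 2.54 and 2.61. Lowest in the positive members were *Comp*, *Chad*, *Col2a1*, *Mgp*, *Gsn*, *Ccn2*, *Cxcl14* and *Dcn*. Of these *Comp*, *Chad* and *Col2a1* are cartilage genes. *Chad* was at 29.3 and 2971 CPM (-6.66) and *Col2a1* at 14.7 and 1653 CPM. The chondrocyte markers exceeded 1% of UMIs in 0 of 8 positive and 19 of 63 negative cells, with medians of 0.131% and 0.248%.

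**Figure D4:**
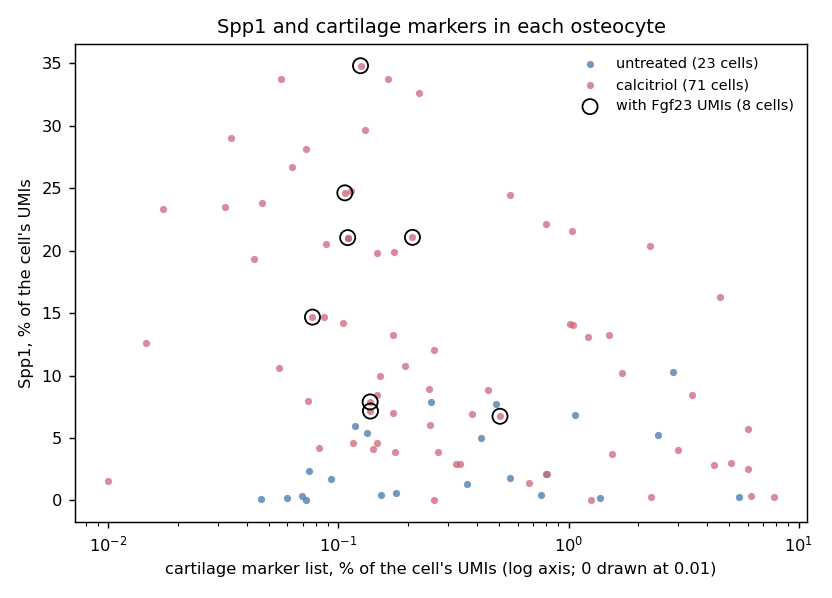
Share of *Spp1* (vertical axis, percent of UMIs) against the share of the chondrocyte marker list (horizontal axis, percent of UMIs, log scale, 0 drawn at the left end) in each untreated and calcitriol member, with rings around the 8 cells with *Fgf23*. The ringed cells lie between 6.74% and 34.8% of *Spp1*, and none exceeds 1% for the chondrocyte list, whereas cells to the right of 1% include 5 untreated and 19 calcitriol members.

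The 8 untreated and 30 calcitriol members with *Sost* were described in the same way. Their median depths were 6722 and 10873 UMIs, against 16575 and 12619 in the members without. *Mepe* and *Phex* are genes of the rule, which asks for 2 of 3 markers, so that a member poor in *Mepe* had to carry *Dmp1* and *Phex*, and the levels of these genes in the classes are shaped by the choice of the cells. *Mepe* was at 7634 CPM in the 8 *Sost*-positive and 291 CPM in the 15 other untreated members (4.72, 4.33 to 5.13). In 1 cell lay 204 of the 397 UMIs of the 8, and without it the level was 4544 CPM and the log2 ratio 3.97. In the 30 and 41 calcitriol members *Mepe* was at 6565 and 2560 CPM (1.36, 1.27 to 1.44). *Phex* had -0.83 in the untreated and 1.06 in the calcitriol library. *Ibsp* had -0.68 and -1.18, and *Col1a1* -1.71 and 0.12. In 1 cell lay 94 of the 135 *Ibsp* UMIs of the untreated *Sost*-positive members, and without it the log2 ratio was -2.18. The calcitriol ratio of *Col1a1* changed sign, to -0.32, without the *Sost*-positive cell with most of its UMIs. *Dkk1*, another Wnt antagonist, was at 62.2 and 11.1 CPM in the calcitriol members (2.48, 1.28 to 3.91). Without 1 cell with 12 of the 33 *Sost*-positive UMIs its log2 ratio was 1.89.

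Against all other barcodes with 200 or more genes, each library apart, 132 of 8847 genes were at least 4-fold higher in the members in both libraries (1.49%) and 334 at least 4-fold lower (3.78%). Since the rule chose the cells by their transcripts, these values describe them and test nothing. The 12 genes furthest above the rest were *Mepe*, *Dmp1*, *Phex*, *Sost*, *Ctsw*, *Ccdc194*, *Spp1*, *Fgf1*, *Irx5*, *Sema5a*, *Rhbdl2* and *Fam20c*. *Mepe* stood at 1730 CPM in the untreated members and 3.41 CPM in the rest. *Sost* was at 328 and 0.275 CPM there. *Ctsw*, a cathepsin gene known from lymphocytes, was at 128 and 0.875 CPM in the untreated and 168 and 1.27 CPM in the calcitriol library, and *Ccdc194* at 102 and 0.686 and at 111 and 1.09 CPM. *Fgf1*, a growth factor gene, was at 415 and 25.03 and at 397 and 34.0 CPM, and without 1 cell with 74.5% of the UMIs its untreated level was 111 CPM. The transcription factor gene *Irx5*, from the osteocyte marker list, was in 73.9% of the untreated members and 7.03% of the rest. Further genes of the lists that were at least 4-fold higher in both libraries included the cartilage signal gene *Ihh* and *Car3*. Also among them were *Ank*, *Bmp2*, *Bmp3*, *Galnt3*, *Vdr*, *Tnfsf11*, *Dkk1*, *Pdgfa*, *Tgfb1*, *Vegfa*, *Sp7*, *Dlx3*, *Ptprz1* and *Il4i1*. *Car3* rested largely on 1 cell per library, with 84.1% of the untreated and 73.9% of the calcitriol UMIs. All 5 untreated *Il4i1* UMIs came from 1 cell. *Vdr* was at 98.0 and 5.46 CPM in the untreated and 131 and 12.7 CPM in the calcitriol library, and *Galnt3* at 75.4 and 4.29 and at 76.7 and 7.02 CPM. Haemoglobin genes, *Col3a1*, *Car2* and the proliferation gene *Mki67*, with no UMI in any member, were on the lower side.

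The cells most like the osteocytes were barcodes with *Bglap* at 0.5% or more of UMIs (95 untreated and 61 calcitriol, *Bglap*-high) and barcodes with *Postn* at 0.5% or more and *Bglap* under it (159 and 78, *Postn*-high), both with the same limits on haemoglobin and *Col2a1*. *Bglap* encodes osteocalcin of mature osteoblasts, and *Postn* encodes periostin of the periosteum. At least 2-fold higher than in *Bglap*-high cells in both libraries were 251 of 6763 genes (3.71%), and 257 were lower (3.8%). Leading were *Mepe*, *Sost*, *F13a1*, *Phex*, *Col10a1*, *Fgf1*, *Ctsw* and *Cnmd*. *F13a1*, the clotting factor XIII A chain, was at 222 and 0 CPM in the untreated and 422 and 7.5 CPM in the calcitriol library. *Col10a1* and *Cnmd* are cartilage genes. Of the untreated *Col10a1* UMIs 397 of 414 came from 1 cell, and without it the log2 ratio to *Bglap*-high cells was 0.89 instead of 5.38 in that library. For *Fgf1* in the untreated and *Cnmd* in the calcitriol library 1 cell also held most UMIs, and without it the ratios were 1.47 and 1.87 instead of 3.37 and 3.40. Without 1 cell with 37 of 59 UMIs, untreated *F13a1* was at 89.9 CPM. The lowest were *Bglap*, *Col3a1*, *Aspn*, *Ptn*, *Tnn*, *Prss35*, *Postn* and *Bglap3*, of which *Bglap* was used to choose both classes. *Aspn*, a proteoglycan gene, was at 3.77 and 563 CPM without calcitriol. *Bglap*-high cells also had *Dmp1*, at 1006 and 1268 CPM. *Vdr* and *Car3*, both over 4-fold above all other barcodes in the members, were not particular to them. In *Bglap*-high cells *Vdr* was at 38.6 and 137 CPM, beside 98.0 and 131 CPM in the members. *Car3* was at 315 and 39.0 CPM, beside 237 and 19.8 CPM in the members.

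Against *Postn*-high cells 359 of 7734 genes were higher (4.64%) and 790 lower (10.2%). The largest were *Dmp1*, *Mepe*, *Phex*, *Col10a1*, *Wif1*, *Fgf1*, *Cytl1* and *Sost*. Of the untreated *Cytl1* UMIs 92.9% came from 1 cell, and the log2 ratios of *Col10a1* and *Cytl1* in that library were 4.79 and 4.61 without the cell with most of their UMIs, instead of 9.28 and 8.33. *Wif1* was at 626 and 7.55 CPM without and 622 and 6.39 CPM with calcitriol. The lowest were *Col3a1*, *Ptn*, *Aspn*, *Tnn*, *Postn*, *Fndc1*, *Col16a1* and *Sfrp2*. *Ptn*, the growth factor gene for pleiotrophin, was at 3.77 and 3947 CPM in the untreated library.

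The difference between the groups was then set beside that in these classes, each with 1 library per group and its own cells. *Spp1* had log2 ratios of 1.98 in the osteocytes, 2.12 in *Bglap*-high and 2.28 in *Postn*-high cells, and with calcitriol it reached 93081 CPM in the *Bglap*-high and 10318 CPM in the *Postn*-high cells. *Bglap* had -0.86, -0.90 and -0.80. *Col1a1* had -1.02, -0.49 and 0.06. *Vdr* had 0.42 (-0.19 to 1.08), 1.83 (1.44 to 2.24) and 0.85 (0.27 to 1.42). *Fgf23* was at 403, 34.5 and 2.13 CPM in the calcitriol library and at 0 in all 3 classes without it. In *Bglap*-high cells 14.8% had a UMI of it, against 11.3% of the osteocytes, but these *Bglap*-high cells held 46 UMIs in all. *Mepe* and *Sost* had no UMI in *Postn*-high cells of either library. Whether any of these ratios differs between the classes could not be tested with 1 library per group.

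**Figure D5:**
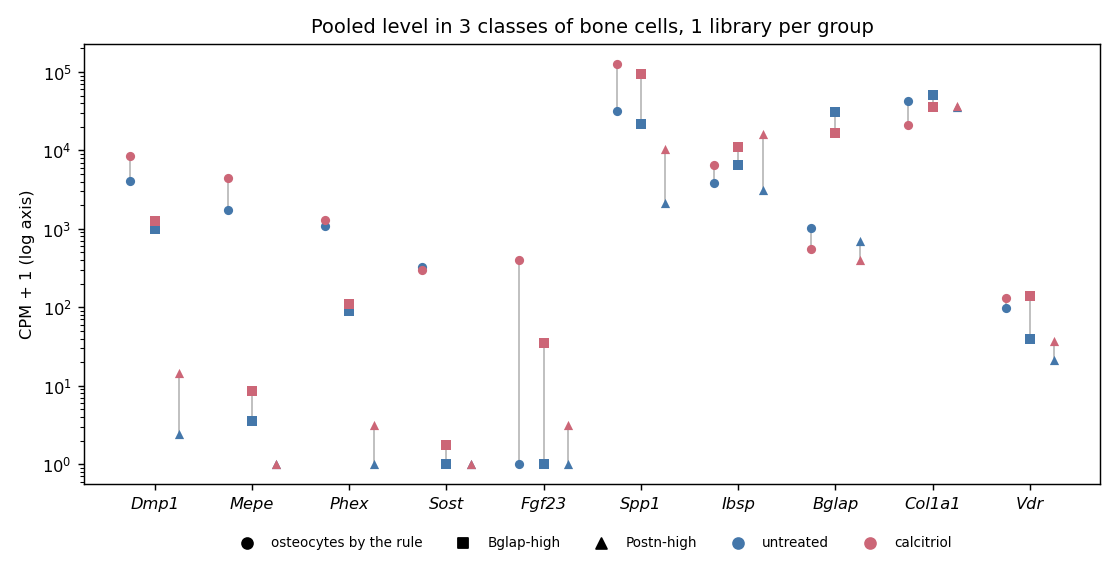
Level (vertical axis, CPM with 1 added, log scale) of osteocyte and osteoblast genes in osteocytes, *Bglap*-high and *Postn*-high cells, untreated and calcitriol joined by a line, 1 point per class and library, equal values drawn over each other. *Mepe* and *Sost* are highest in the osteocytes, whereas *Spp1* is higher with calcitriol in all 3 classes.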

How the data were processed

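Droplet libraries of 1 untreated and 1 calcitriol-injected pool were analysed. The authors deposited, per library, a filtered matrix of UMI counts, not normalized, for the genes of GRCm38 (mm10). The submitters' processing notes name Cell Ranger 4.0.0 and Seurat 3.2.2. Counts were summed over members and divided by their total (CPM). Ratios carry exact conditional binomial 95% intervals and shares Clopper-Pearson 95% intervals, which cover counting error only. PCR copies had been collapsed into UMIs upstream. For the ratios given, groups without UMIs were set to a floor of 3 counts. The calls did not use this floor, and in every comparison a gene with UMIs on 1 side alone counted as passing the fold. *Fgf23*, *Chil1*, *Gm17322* and *Tfpi2*, called higher in the members without untreated UMIs, were at least 4.65-fold above the floor. Members, classes and gene lists were chosen with earlier results of these data known, and the list of vitamin D genes named by the study came from these samples.

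Genes were named by rule: the genes of the rule, up to 4 genes per list by level or ratio, the 12 largest and smallest called ratios with 10 CPM added, the 12 genes furthest above all other barcodes, the 8 largest and smallest against *Bglap*-high and *Postn*-high cells, and the 8 largest and smallest between members with and without *Fgf23*. The ranking skipped haemoglobin and mitochondrial genes. Other genes named from lists, and *Tpm1*, *Serpinh1*, *Vim* and *Pth1r*, were chosen after their values were seen. Cells were thinned to 2000 UMIs, with 1 untreated and 2 calcitriol members under that depth left out. Doublets were scored against simulated pairs in 30 components, and 184 untreated and 139 calcitriol barcodes were marked (3.97% and 3.55%), of which 0 and 3 were members. They were kept. The scripts were tested on simulated data. Python 3.11.15, numpy 2.4.6, scipy 1.17.1, pandas 2.3.3, scikit-learn 1.9.0 and matplotlib 3.10.9 were used. Alternatives varied the rule's limits, the filter on low counts, the fold, the totals, the depth and the weighting of cells. Promoters were matched to RefSeq by symbol.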

Additional observations from a re-analysis of the deposited data

Results flagged for a closer look

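Genes called in the osteocytes and called in the opposite direction in a class of bone cells most like them are given here, as log2 ratios of calcitriol over untreated. With 1 library per group, none of these differences was tested. Against *Bglap*-high cells, 9 of 3157 genes compared in both were called in opposite directions. *Cxcl1* was at 2.40 in the osteocytes and -1.46 in the *Bglap*-high cells, *Rnf150* at 1.71 and -1.26, *Crip1* at 1.05 and -1.40, *Megf10* at 3.10 and -2.29, and *Uba1* at 1.19 and -1.01. The 95% counting interval of *Uba1* in the osteocytes ran from -0.01 to 2.70 and so included 0, while those of the other 8 genes did not. *Apoe*, a lipid carrier gene, was at -2.47 and 2.18, *Gas1* at -1.48 and 1.90, *Clu*, which encodes the chaperone clusterin, at -1.34 and 4.33, and *Loxl4*, a collagen cross-linking enzyme gene, at -1.35 and 1.97. Some of the osteocyte ratios moved when 1 cell was left out. Without the cell with the most UMIs in the higher library, *Cxcl1* was at 0.01, *Apoe* at -0.61, *Gas1* at -0.30 and *Clu* at 0.11. Without the members above 1% cartilage markers of both libraries, these values were 0.78 (-0.95 to 3.16, with 3 untreated UMIs), -2.30, -0.73 and -0.75.

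Against *Postn*-high cells, 7 of 3121 genes were called in opposite directions. *Lrrc8d* was at 2.83 in the osteocytes and -1.53 in the *Postn*-high cells, *Acan*, the cartilage proteoglycan aggrecan, at 1.26 and -1.02, *Inhba* at 2.48 and -2.31, *Cxcl14* at 1.17 and -1.23, *Serinc5* at 1.81 and -1.14, and *Retreg1* at 1.03 and -1.20. *Clu* was at -1.34 and 2.29, so it was the 1 gene called opposite to the osteocytes in both classes. Without 1 cell, *Lrrc8d* was at 0.88 and *Acan* at 0.52 in the osteocytes. Without the members above 1% cartilage markers, *Acan* was at -0.16, *Cxcl14* at 0.25 and *Serinc5* at 0.39, and *Lrrc8d* had 0 untreated and 6 calcitriol UMIs.

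*Fgf23* was also detected outside the members, with 74 UMIs in 21 barcodes of the calcitriol library and none in the untreated library. Their median depth was 14174 UMIs, and 46 of the 74 UMIs lay in *Bglap*-high cells.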

How the results depend on the processing

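With 1 library per group and no replicate numbers, leaving out a replicate was not possible. No paired analysis was possible because each group is 1 pooled library. The number of members stayed within 1.5 times (17 to 34 untreated and 56 to 90 calcitriol) under every change of the rule's limits. Genes called higher and lower with calcitriol numbered 219 and 202 by the mean of the cells' own CPM alone, 23 and 20 with each cell thinned to 2000 UMIs, 502 and 294 with 20 or more UMIs in any share of cells, 46 and 49 with 100 or more UMIs in 25% of cells, and 46 and 24 at 3-fold. Thinning and the stricter filter left fewer genes to compare (426 and 1729, against 3244), and the looser filter more (6073). Genes with UMIs in 1 library alone counted as called whatever their level, so the 502 and 294 of the looser filter can include genes that depth alone brought in. Against all other barcodes, 46 genes were higher and 186 lower at 8-fold, and 3058 were lower with 20 or more UMIs in any share of cells. Genes without UMIs in the members counted as lower whatever their level in the other barcodes. Depth alone can thus bring a rare gene into the 3058, and no result is read from that count. Of 635 recomputed gene ratios, over 38 genes and 17 settings, 454 stayed inside the counting interval of the reported ratio, 177 moved out of it, and 4 ratios of called genes changed sign: *Crispld1* was at 0.72 with 3 marker UMIs required, at 0.54 without members above 1% cartilage markers and at 0.54 without the cell with most of its UMIs, and *Mgp* at -1.22 with *Col2a1* under 0.1%. The cause was not tested. Leaving out the cell with most UMIs of a gene, the members with *Fgf23*, the cartilage-rich members or *Spp1* and *Gm42418* was chosen after seeing the data. The count without the *Fgf23*-positive members was 106 higher and 82 lower, without the members above 1% cartilage markers 121 and 96, of which 72 and 54 were among the original calls, and without *Spp1* and *Gm42418* in the totals 159 and 82. Depth limits the untreated side most, where 3 UMIs are 11.3 CPM.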
